A study of Homo sapiens with 5 samples.

Results

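The extracellular matrix, integrin and protease genes described here are the 83 genes, of 9767 with RNA polymerase II (RNAPII) values in all 3 genotypes, whose symbols belong to the collagen, integrin, laminin, ADAM, ADAMTS, matrix metalloproteinase, serpin, lysyl oxidase, fibrillin, fibulin, thrombospondin, TIMP and TGF-beta name families. They were chosen by symbol alone, with 1 transcription start site (TSS) per gene, the one with the highest mean promoter density. No thrombospondin gene was among them. RNAPII was measured by ChIP-seq with an antibody to its subunit RPB1 in untreated RPE1 cells, a human retinal pigment epithelial line immortalised with telomerase. Every group was, per the labels, RPE1 iCas9 p53/puro-dKO: it carried an inducible Cas9 and lacked p53 and the puromycin resistance gene, the group called WT included. WT (3 samples) was compared with CFAP20-KO (1 sample), which also lacked CFAP20, a protein named for cilia and flagella, and with CFAP20/CCNC-dKO (1 sample), which lacked CFAP20 and CCNC, cyclin C of the Mediator kinase module. Whether each knockout line was a single clone is not stated in the sources used here, and no TSS of CFAP20 or CCNC was analysed, so the knockouts could not be checked at their own genes.

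The extracellular matrix is a network of collagens, fibrillins, fibulins and laminins that cells secrete. Lysyl oxidases crosslink collagen and elastin, integrins tie the matrix to the cytoskeleton, metalloproteinases of the MMP, ADAM and ADAMTS families cut matrix and cell surface proteins, and TIMPs and many serpins inhibit proteases. TGF-beta signalling is known to induce many of these genes, TGFBI and the fibrillar collagens among them, and the Mediator kinase module acts on transcription factors and on the link between Mediator and RNAPII.

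Each genotype had 1 library around TSSs, so the comparisons have no replicate check and no p-value is given. Per the labels, the RPB1 antibody of WT and that of the knockouts came from different suppliers, and the WT catalogue number is also that of the spike-in antibody, so it may be wrong. In comparisons with WT the antibody and the genotype cannot be told apart. The 2 knockouts share an antibody, but CFAP20/CCNC-dKO had 22 µg of chromatin and 32.6 ng of Drosophila spike-in chromatin where CFAP20-KO had 28 µg and 40 ng. Promoter density is the mean spike-in normalized read density from -200 to 500 bp of the TSS, and gene body density that from 2000 to 5000 bp, both per base. Isolated fragments covered 145 bp in WT, 298 bp in CFAP20-KO and 319 bp in CFAP20/CCNC-dKO. In comparisons with WT, fragment length and genotype cannot be told apart either, and its part in the ratios was not tested. Depth was lower in the knockouts: over all TSS windows, fragment numbers were 12.5% (CFAP20-KO) and 17.5% (CFAP20/CCNC-dKO) of that in WT. A member above the density filter held a median of 85.6, 10.6 and 16.0 promoter fragments in these libraries (WT first, CFAP20/CCNC-dKO last). Brackets after a ratio give its 95% Clopper-Pearson interval, which covers counting error only and is too narrow if the ends of a read pair were counted separately.

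46 of the 83 genes had a promoter density, averaged over the 3 libraries, above 0.411, the median over all genes, against 50.1% of all genes. 10 of these 46 passed only through the knockout libraries, since their WT density alone lay below 0.411. The 46 comprised 9 of 14 collagens, 7 of 12 matrix metalloproteinases, 6 of 18 serpins, 5 of 7 integrin subunits, 5 of 7 ADAMTS genes, 3 of 6 ADAMs, 2 of 4 fibrillins and fibulins, 1 of 2 TIMPs and both lysyl oxidases. Both TGF-beta genes, TGFBI and TGFBR2, passed. The remaining 4 were names that the families share with other genes: the antisense genes COL4A2-AS1, COL4A2-AS2 and LOXL1-AS1 and the pseudogene ADAM20P1. ChIP reads carry no strand, so RNAPII on an antisense gene and on the gene opposite to it cannot be told apart. As the background level, the median promoter density of genes with no value in a WT measurement of nascent transcription (BrU-seq) was 0.305, 0.266 and 0.277 in WT, CFAP20-KO and CFAP20/CCNC-dKO. The 37 genes below the filter had medians of 0.295, 0.232 and 0.261, close to that level. In the gene body, the background median of the genes with no BrU-seq value was 0.314, 0.291 and 0.308 in the same order.

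Promoter sequences were taken for the members that RefSeq held. Of the 83 genes, 58 matched a RefSeq promoter by symbol and 51 had a RefSeq start within 300 bp of the listed TSS. Median GC content of the 250 bases before the start was 60.6% over 28 members above the filter (30.0% to 80.8%), 52.0% over 23 members below it and 58.0% over 35116 RefSeq promoters. The stretches below came from RefSeq on GRCh38.p14 and were kept upstream of every annotated exon. They cover TGFBI, ITGA5 and LOX, which the text follows throughout, and MMP10, TGFBR2 and ADAMTS14. MMP10 had the lowest promoter ratio of the members above the filter in CFAP20/CCNC-dKO against both other libraries. ADAMTS14 and TGFBR2 were chosen after their values were seen. MMP21 and MMP8, which are not printed, had higher promoter ratios to WT in CFAP20/CCNC-dKO than ADAMTS14, and each held a TATA box match. The printed stretches therefore give no comparison of base content between higher and lower promoters. Capitals mark matches on either strand to the motifs that are spelled out after the stretches.
TGFBI (chr5:136028738-136028894, plus strand, -250 to -94 of the start): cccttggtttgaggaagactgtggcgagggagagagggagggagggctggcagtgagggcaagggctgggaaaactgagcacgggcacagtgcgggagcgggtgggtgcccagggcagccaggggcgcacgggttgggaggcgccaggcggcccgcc
ITGA5 (chr12:54419461-54419516, minus strand, -250 to -195 of the start): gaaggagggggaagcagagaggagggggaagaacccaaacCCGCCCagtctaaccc
LOX (chr5:122078414-122078509, minus strand, -250 to -155 of the start): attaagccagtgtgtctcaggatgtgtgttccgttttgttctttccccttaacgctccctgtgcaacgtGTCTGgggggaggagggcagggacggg
MMP10 (chr11:102780629-102780828, minus strand, -200 to -1 of the start): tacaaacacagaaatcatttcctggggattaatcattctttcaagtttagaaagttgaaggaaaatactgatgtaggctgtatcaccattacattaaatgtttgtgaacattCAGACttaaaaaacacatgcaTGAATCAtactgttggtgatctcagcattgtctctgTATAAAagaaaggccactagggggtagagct
TGFBR2 (chr3:30606156-30606355, plus strand, -200 to -1 of the start): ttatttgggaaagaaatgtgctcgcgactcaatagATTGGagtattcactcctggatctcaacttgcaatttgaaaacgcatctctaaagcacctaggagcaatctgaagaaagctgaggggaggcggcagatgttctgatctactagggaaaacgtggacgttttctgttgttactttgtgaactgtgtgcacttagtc
ADAMTS14 (chr10:70672306-70672505, plus strand, -200 to -1 of the start): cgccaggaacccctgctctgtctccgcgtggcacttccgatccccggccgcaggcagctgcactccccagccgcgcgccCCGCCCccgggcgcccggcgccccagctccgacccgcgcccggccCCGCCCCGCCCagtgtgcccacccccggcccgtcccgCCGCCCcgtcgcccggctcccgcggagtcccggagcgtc
The TGFBI, ITGA5 and ADAMTS14 stretches were 71.3%, 62.5% and 83.0% G and C, while those of MMP10 and TGFBR2 were 35.5% and 43.5%. The ADAMTS14 stretch held 4 GGGCGG matches, the second overlapping the next. MMP10, which codes for the protease stromelysin-2, had a TATA box match close to its start, then an AP-1 and a SMAD match farther upstream. Over the 51 members, TATAAA (the TATA box) was found in 15.7% against 10.7% of all RefSeq promoters, GGGCGG (SP1) in 41.2% against 42.6%, TGANTCA (AP-1) in 9.80% against 6.57%, CCAAT (NF-Y) in 39.2% against 32.0%, CAGAC (SMAD) in 54.9% against 38.0%, and GGAATG (TEAD) in 11.8% against 11.9%. These are matches of letters in 250 bases and not binding sites. The window varies with the annotated start, and the LOX, ITGA5 and TGFBI stretches were shortened where an exon or the listed TSS lay upstream of the RefSeq start.

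**Figure D1:**
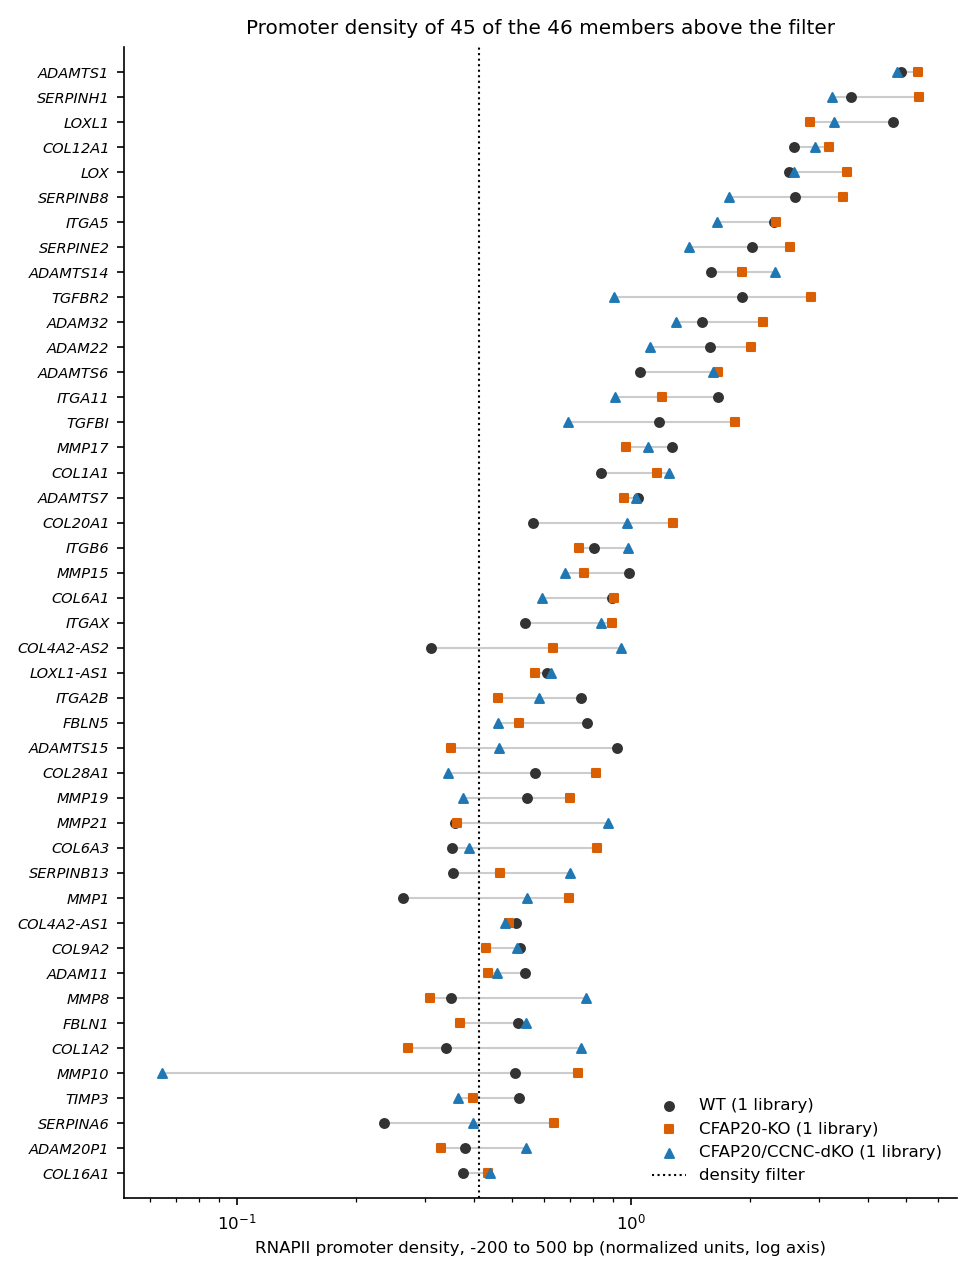
RNAPII promoter density (normalized units, log axis) of 45 of the 46 members above the filter, 1 point per library for WT, CFAP20-KO and CFAP20/CCNC-dKO, ordered by their mean. ADAMTS1 lies between 4.74 and 5.37, TGFBR2 is split from 2.86 in CFAP20-KO to 0.905 in CFAP20/CCNC-dKO, and the dotted line marks the filter at 0.411.

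TGFBI codes for a secreted matrix protein that binds collagens and integrins, and TGFBR2 for the type II TGF-beta receptor. TGFBI (chromosome 5, TSS at 136028895 on hg38, plus strand) showed promoter densities of 1.18 for WT, 1.83 for CFAP20-KO and 0.692 for CFAP20/CCNC-dKO, and gene body densities of 0.685, 1.09 and 0.532 in the same order. CFAP20-KO was the highest and CFAP20/CCNC-dKO the lowest in both windows. For CFAP20/CCNC-dKO against CFAP20-KO the TGFBI gene body ratio was 0.487 (0.324 to 0.727) and the promoter ratio 0.377 (0.179 to 0.762). The promoter interval reached the median promoter ratio of all genes, 0.757. The gene body interval lay wholly below the median gene body ratio, 0.966. Against WT, CFAP20/CCNC-dKO gave 0.776 (0.556 to 1.06) in the gene body, an interval that includes 1. As in any population of cells, less RNAPII in each cell and fewer cells with RNAPII on a gene cannot be told apart. TGFBR2 (chromosome 3, TSS at 30606502, plus strand) had promoter densities of 1.92, 2.86 and 0.905 and gene body densities of 0.551, 0.561 and 0.596 in WT, CFAP20-KO and CFAP20/CCNC-dKO. The TGFBR2 promoter ratio was 0.473 (0.275 to 0.765) for CFAP20/CCNC-dKO against WT and 0.317 (0.17 to 0.57) against CFAP20-KO, while the gene body intervals, 0.785 to 1.47 and 0.668 to 1.72, included 1. The peak next to the TGFBR2 start in WT and CFAP20-KO had no counterpart of that height in CFAP20/CCNC-dKO, as the profiles show. With a promoter window from -500 to 1000 bp, the TGFBR2 log2 promoter ratio to WT, relative to the median ratio, was -0.42 in place of -0.80, short of 1.5-fold.

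**Figure D2:**
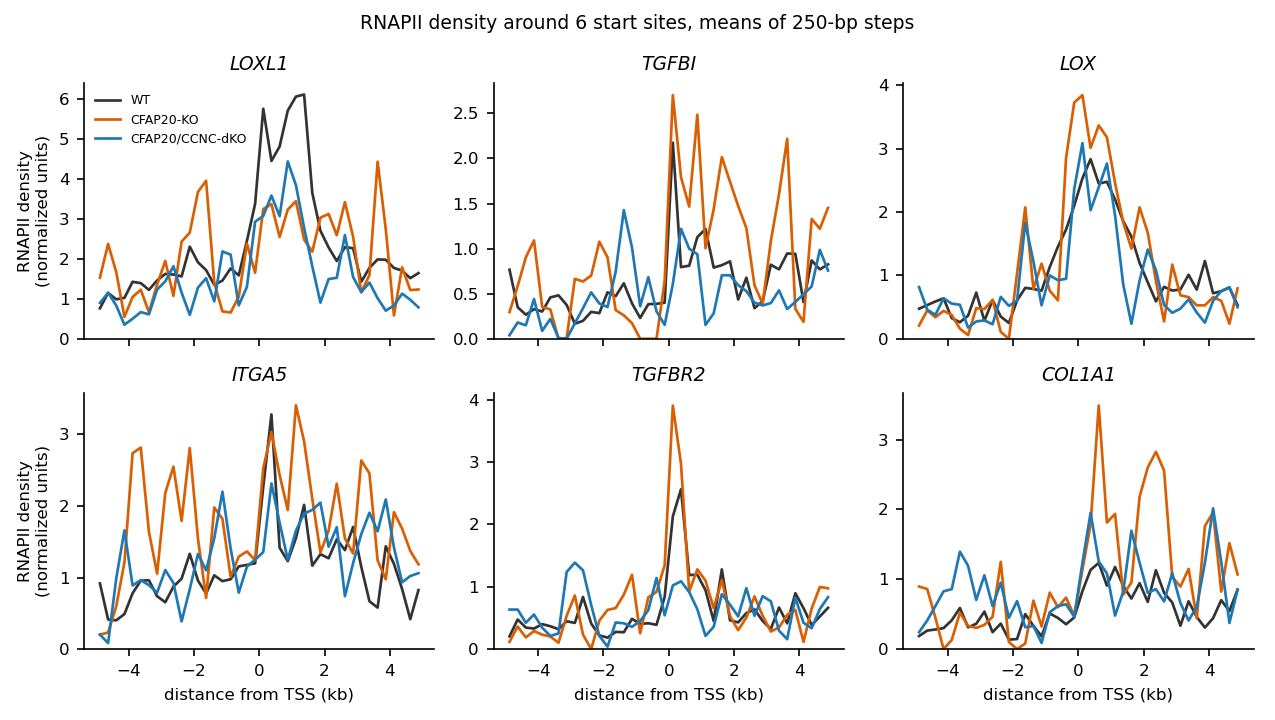
RNAPII density (normalized units, linear axis from 0) against distance from the TSS in kb for LOXL1, TGFBI, LOX, ITGA5, TGFBR2 and COL1A1, as means of 250-bp steps with 1 line per library. TGFBR2 has no peak near its start in CFAP20/CCNC-dKO of the height seen in the other libraries, and the knockout lines are jagged because a gene body window held a median of 27.9 and 40.2 fragments in CFAP20-KO and CFAP20/CCNC-dKO against 207 in WT.

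In the gene bodies of the 46 members, CFAP20/CCNC-dKO was at least 1.5-fold lower than CFAP20-KO, relative to the median ratio of all genes, at 8 (11.9% of all genes) and higher at 6 (13.2% of all genes). With the further condition that the counting interval lay wholly on that side of the median ratio, 7 were lower (8.56% of all genes) and 2 higher (6.89% of all genes). The 7 included the matrix proteins TGFBI, COL1A1 and COL6A1, the integrin subunit ITGA11 and the matrix enzymes LOXL1 and ADAMTS14, and the 2 were MMP1 and ADAMTS7. The members' shares were 17.4% lower by fold and 15.2% by the interval rule. The median log2 ratio was -0.12 for the members and -0.05 for all genes.

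The fibrillar collagens COL1A1 and COL1A2 code for the chains of type I collagen. COL1A1 had gene body densities of 0.633 for WT, 1.55 for CFAP20-KO and 0.902 for CFAP20/CCNC-dKO, and promoter densities of 0.837, 1.16 and 1.24. CFAP20-KO exceeded WT in the COL1A1 gene body 2.45-fold (1.91 to 3.12), and CFAP20/CCNC-dKO was lower than CFAP20-KO at a ratio of 0.581 (0.422 to 0.799). COL1A2 had promoter densities of 0.338, 0.271 and 0.745 in WT, CFAP20-KO and CFAP20/CCNC-dKO, well above the background level in the last library alone. Its promoter ratio for CFAP20/CCNC-dKO against WT was 2.2 (1.12 to 4.12), and it passed the filter through that library alone. COL6A1, a chain of the microfibrillar type VI collagen, had gene body densities of 0.284, 0.695 and 0.255, a ratio of 2.45 (1.67 to 3.53) for CFAP20-KO against WT and of 0.367 (0.207 to 0.635) for CFAP20/CCNC-dKO against CFAP20-KO. Its gene body densities in WT and CFAP20/CCNC-dKO lay below the gene body background medians, 0.314 and 0.308, so both ratios compare CFAP20-KO with background. COL6A1 promoter densities were 0.893, 0.903 and 0.596, with no such difference between WT and CFAP20-KO. COL12A1, a collagen that associates with type I fibrils, had the highest collagen promoter density, at 2.60, 3.19 and 2.93. Its gene body density was lower in CFAP20-KO, at 0.500 against 0.768 in WT and 0.732 in CFAP20/CCNC-dKO, a ratio to WT of 0.651 (0.426 to 0.958). COL9A2, a chain of the cartilage type IX collagen, was higher in the gene body of CFAP20-KO than of WT, at 0.519 against 0.284. The ratio was 1.83 (1.18 to 2.75), with the WT value again below the gene body background median. The collagens thus did not share a direction: COL1A1, COL6A1 and COL9A2 were higher and COL12A1 was lower in the CFAP20-KO gene body. With a gene body window from 1000 bp, COL9A2 and COL12A1 were short of 1.5-fold, at log2 ratios relative to the median ratio of 0.49 in place of 0.71 and -0.43 in place of -0.66. The higher COL1A2 promoter in CFAP20/CCNC-dKO against CFAP20-KO went from 1.74 to 0.58 on that scale, also short of 1.5-fold, with the window from -500 to 1000 bp.

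Among the enzymes and chaperones that act on collagen, LOX and LOXL1 code for crosslinking lysyl oxidases and SERPINH1 for the collagen chaperone HSP47. LOX (chromosome 5, TSS at 122078285, minus strand) had promoter densities of 2.52 for WT, 3.53 for CFAP20-KO and 2.59 for CFAP20/CCNC-dKO, and gene body densities of 0.805, 0.726 and 0.655. All 3 gene body ratios of LOX had intervals that included 1, from 0.603 to 1.08 for CFAP20/CCNC-dKO against WT to 0.591 to 1.39 for CFAP20/CCNC-dKO against CFAP20-KO. LOXL1 had promoter densities of 4.63, 2.84 and 3.27, highest in WT. Its promoter ratio for CFAP20-KO against WT was 0.614 (0.427 to 0.858). LOXL1 gene body densities were 1.88, 2.21 and 1.27, and CFAP20/CCNC-dKO was lowest there, at a ratio of 0.574 (0.439 to 0.749) to CFAP20-KO and 0.672 (0.545 to 0.821) to WT. Both LOXL1 values were close to the 1.5-fold limit: with a window from 1000 bp the log2 ratio to CFAP20-KO, relative to the median ratio, was -0.51 in place of -0.73, and without centring on the median that to WT was -0.56 in place of -0.59. The antisense gene LOXL1-AS1 starts at 73919870 and LOXL1 at 73926458 on chromosome 15, so their promoter and gene body windows do not overlap, while the outer parts of the stretches of 5000 bp around them do. SERPINH1 had promoter densities of 3.62, 5.39 and 3.23 and gene body densities of 0.998, 1.39 and 1.19, and it stayed within 1.5-fold of the median ratio in each comparison.

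Integrin alpha 5 (ITGA5) pairs with beta 1 as the fibronectin receptor, and integrin alpha 11 (ITGA11) pairs with beta 1 as a collagen receptor. ITGA5 (chromosome 12, TSS at 54419460, minus strand) had promoter densities of 2.31 for WT, 2.34 for CFAP20-KO and 1.66 for CFAP20/CCNC-dKO, and gene body densities of 1.08, 1.69 and 1.40. Its gene body ratio for CFAP20-KO against WT was 1.56 (1.24 to 1.95), just short of 1.5-fold above the median ratio, 1.06. ITGA11 had gene body densities of 0.498, 1.22 and 0.768, and CFAP20-KO exceeded WT 2.46-fold (1.85 to 3.23), the highest gene body ratio of the members with COL1A1 and COL6A1 next to it. ITGA11 promoter density went the other way, from 1.66 for WT to 1.20 for CFAP20-KO and 0.910 for CFAP20/CCNC-dKO. ITGA2B, the platelet integrin alpha IIb, was low in all libraries, with gene body densities of 0.542, 0.276 and 0.472 and a ratio of 0.509 (0.283 to 0.85) for CFAP20-KO against WT, which fell short of 1.5-fold with a window from 1000 bp (log2 ratio relative to the median ratio of -0.52 in place of -0.96). The lower ITGA11 gene body in CFAP20/CCNC-dKO than in CFAP20-KO was likewise short of 1.5-fold with local flank scaling, at -0.49 in place of -0.59. ITGB6, the beta subunit of a TGF-beta activating integrin, stayed within 1.5-fold of WT in both knockouts, with promoter densities of 0.804, 0.738 and 0.982.

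**Figure D3:**
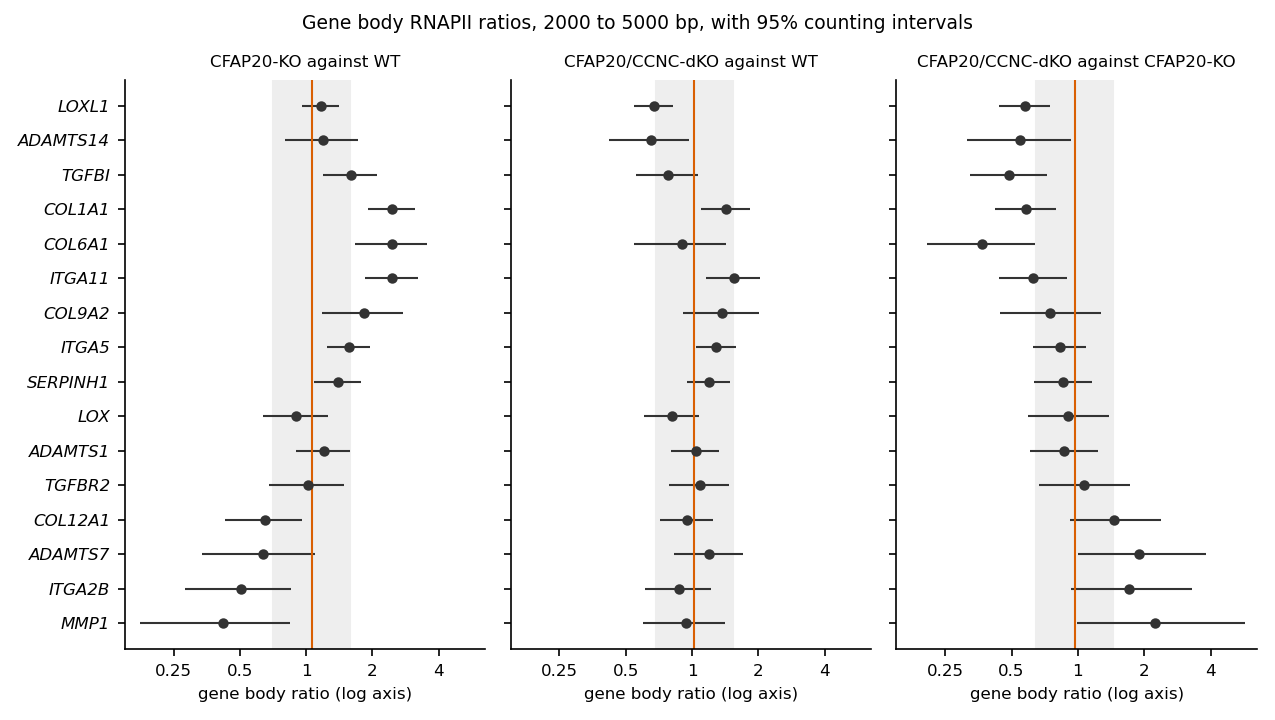
Ratios of gene body RNAPII density (log axis) between genotypes for 16 members, with points for the ratio, bars for the 95% counting interval, an orange line at the median ratio of all genes above the filter and a grey band reaching 1.5-fold to either side of it. COL1A1, COL6A1 and ITGA11 lie near 2.45 for CFAP20-KO against WT and below 1 for CFAP20/CCNC-dKO against CFAP20-KO; the panels share libraries.

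For CFAP20-KO against WT, 4 of the 46 members were higher in the gene body by fold (7.35% of all genes), COL1A1, COL6A1, COL9A2 and ITGA11, and the same 4 met the interval rule (7.26% of all genes). 9 were lower by fold (12.8% of all genes) and 6 by the interval rule (9.53% of all genes): TIMP3, MMP1, MMP10, ITGA2B, LOXL1-AS1 and COL12A1. The members' median log2 ratio in the gene body was 0.24 against 0.08 for all genes. At promoters 5 members were higher (15.8% of all genes) and 5 lower (16.7% of all genes), of which 2 and 2 met the interval rule (8.14% and 7.79% of all genes). These shares, 10.9% of the members each by fold, were not above those of all genes. 4 of the 5 higher promoters passed the filter only through the knockout libraries.

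The protease ADAMTS1, which cleaves proteoglycans, had the highest promoter density of the proteases, at 4.85 for WT, 5.37 for CFAP20-KO and 4.74 for CFAP20/CCNC-dKO. Its gene body densities were 0.871, 1.05 and 0.904, and each of its 6 intervals included 1. ADAMTS14, a procollagen N-proteinase, had promoter densities of 1.59, 1.91 and 2.32 but gene body densities of 0.490, 0.584 and 0.318. It was thus highest at the promoter and lowest in the gene body in CFAP20/CCNC-dKO, with ratios to WT of 1.46 (1.03 to 2.03) and 0.649 (0.419 to 0.968), and log2 promoter-to-body density was 1.62, 1.64 and 2.72. Without centring on the median ratio both ADAMTS14 ratios to WT were short of 1.5-fold, at 0.53 and -0.57 on the log2 scale. ADAMTS15 had promoter densities of 0.921, 0.348 and 0.462, with both knockouts near the background level. The ratio was 0.378 (0.112 to 0.949) for CFAP20-KO, where it rested on 4.53 fragments, and with a window from -500 to 1000 bp the log2 ratio relative to the median ratio was -0.80 in place of -1.44. ADAMTS7 had gene body densities of 0.384, 0.244 and 0.460, the CFAP20-KO value below the gene body background median. The ratio for CFAP20/CCNC-dKO against CFAP20-KO was 1.89 (0.998 to 3.8), short of 1.5-fold with a window from 1000 bp (0.55 in place of 0.87).

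Of the matrix metalloproteinases, the membrane-anchored MMP17 and MMP15 had the highest mean promoter densities, 1.27, 0.972 and 1.11 for MMP17 and 0.990, 0.758 and 0.679 for MMP15 in WT, CFAP20-KO and CFAP20/CCNC-dKO. Neither was past 1.5-fold at the promoter in any comparison. MMP10 had promoter densities of 0.508, 0.735 and 0.0644, the last from 1.29 fragments, and the ratio for CFAP20/CCNC-dKO against WT was 0.127 (0.00633 to 0.624). With a window from -500 to 1000 bp the MMP10 log2 ratio relative to the median ratio was -0.86 in place of -2.14. MMP1, interstitial collagenase, had promoter densities of 0.264, 0.696 and 0.545 and gene body densities of 0.340, 0.142 and 0.318. Its WT promoter density was below the background median. Its gene body density was near the gene body background median in WT and lowest in CFAP20-KO, from 7.92 fragments. The higher MMP1 promoter in CFAP20-KO than in WT was not past 1.5-fold with a window from -500 to 1000 bp, where the log2 ratio relative to the median ratio was 0.29 in place of 1.14. TIMP3, a matrix-bound inhibitor of metalloproteinases, had gene body densities of 0.325, 0.108 and 0.232 and a ratio of 0.334 (0.121 to 0.742) for CFAP20-KO against WT. The WT value was near the gene body background median, 0.314, and the CFAP20-KO value rested on 6.04 fragments.

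Several members lie in gene clusters with little RNAPII. The 8 MMP genes between positions 102530753 and 102955734 of chromosome 11 had WT promoter densities from 0.195 to 0.508 (median 0.306), and 3 of them passed the filter. On chromosome 18, SERPINB8, a cytosolic serpin, had promoter densities of 2.61, 3.45 and 1.77, while the other 8 SERPINB genes of the cluster had WT values from 0.126 to 0.352 (median 0.309). The 4 SERPINA genes on chromosome 14 had WT values from 0.236 to 0.415. In WT, SERPINB8 was thus the 1 gene of these clusters far above the background level. SERPINE2, the secreted protease nexin 1, had promoter densities of 2.03, 2.53 and 1.40 and gene body densities of 0.424, 0.394 and 0.468. The SERPINE2 gene body ratio for CFAP20/CCNC-dKO against CFAP20-KO was 1.19 (0.69 to 2.1).

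For CFAP20/CCNC-dKO against WT, 13 of the 46 promoters were past 1.5-fold higher relative to the median ratio (18.9% of all genes), 28.3% of the members. By the same rule 4 were lower (16.7% of all genes). By the interval rule 11 were higher (10.5% of all genes) and 2 lower, MMP10 and TGFBR2 (11% of all genes). 8 of the 13 had a WT density below the filter and so could pass it only if a knockout library was higher: COL1A2, COL4A2-AS2, MMP1, MMP8, MMP21, SERPINA6, SERPINB13 and ADAM20P1. Among the 25 members with a BrU-seq value above the median, a choice that uses no ChIP library and was made after seeing the data, 4 promoters were higher, 16.0% against 13.6% of all such genes, and 2 were lower, 8.00% against 15.2%. In the gene body 1 member was higher, COL4A2-AS1 (5.12% of all genes), and 4 were lower, SERPINA6, ADAMTS14 and LOXL1 among them (9.9% of all genes). All 5 met the interval rule (5.1% and 9.6% of all genes). With a window from 1000 bp, COL4A2-AS1, SERPINA6 and ADAMTS14 were short of 1.5-fold. Their log2 ratios relative to the median ratio were 0.55, -0.35 and -0.43 in place of 0.69, -0.63 and -0.60. The median log2 ratio was -0.06 at promoters against -0.24 for all genes, and 0.05 in gene bodies against 0.04. For CFAP20/CCNC-dKO against CFAP20-KO, 13 promoters were higher (20.9% of all genes) and 5 lower (17.7% of all genes), of which 3 and 2 met the interval rule (5.93% and 6.48% of all genes). Of these 13, 6 had a WT density below the filter. Among them were the 3 that met the interval rule, COL1A2, MMP8 and MMP21. These 3 were below the filter in CFAP20-KO too and passed it through the CFAP20/CCNC-dKO library alone. With a promoter window from -500 to 1000 bp, MMP21 was short of 1.5-fold, at a log2 ratio relative to the median ratio of 0.18 in place of 1.59. Of the promoters higher than in WT, SERPINB13 was short of 1.5-fold with that window, at 0.36 in place of 1.15. COL1A1 was short of it without centring, at 0.55 in place of 0.80. The comparisons share libraries, so their counts are not independent of each other.

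RNAPII in WT was set beside the authors' deposited BrU-seq value, a measure of nascent transcription in WT gene bodies with no error and no stated scale. High BrU-seq values were found for ADAMTS1 at 99.8, SERPINH1 at 64.3, LOXL1 at 20.6, ITGA5 at 18.8 and LOX at 9.55, all genes with a WT promoter density of at least 2.31. The pattern did not hold further down. Next in BrU-seq order, COL4A2-AS1 at 7.58 had a WT promoter density of 0.511, SERPINB8 at 6.45 one of 2.61 and TGFBI at 5.27 one of 1.18. COL4A2-AS2 at 3.02 had 0.311. Over 43 members above the filter, Spearman's rho across genes between BrU-seq and gene body density was 0.71, and 0.64 for promoter density. Over 3957 genes above the filter the values were 0.56 and 0.59. Genes are not independent replicates and the BrU-seq scale may include gene length, so these are descriptions. In WT, 38 of the 46 members had more RNAPII per base at the promoter than in the gene body. This was not particular to them: their median log2 promoter-to-body density was 0.75, against 1.19 over all genes above the filter. SERPINB8, ADAMTS1, SERPINE2, ADAM22 and SERPINH1 had the highest log2 promoter-to-body density, at 2.54, 2.42, 2.16, 1.99 and 1.82. MMP21, SERPINA6, COL16A1, COL4A2-AS2 and COL6A3 had the lowest, from -0.94 to -0.43.

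Other genes of the same pathways were taken from lists. Calls past 1.5-fold below are relative to the median ratio of all genes above the filter. At promoters this was 0.844 for CFAP20/CCNC-dKO against WT and 0.757 against CFAP20-KO, so density ratios below 1.5 could be called higher. Of all genes, 15.8% of promoters were higher and 16.7% lower for CFAP20-KO against WT, and 7.35% and 12.8% of gene bodies. For CFAP20/CCNC-dKO against WT these shares were 18.9% and 16.7%, and 5.12% and 9.9%. Against CFAP20-KO they were 20.9% and 17.7%, and 13.2% and 11.9%. The interval rule was not applied to the listed genes. Of 18 listed TGF-beta signal transducers 5 were measured and 4 passed the filter. These were SMAD7, SKI and SKIL, which restrain TGF-beta signalling, and BAMBI, a decoy receptor. The gene bodies of all 4 were past 1.5-fold lower in CFAP20/CCNC-dKO than in CFAP20-KO (11.9% of all genes). SMAD7 had gene body densities of 1.05, 1.36 and 0.521 in WT, CFAP20-KO and CFAP20/CCNC-dKO, BAMBI 0.544, 1.05 and 0.427, SKI 0.972, 0.860 and 0.529, and SKIL 0.992, 1.15 and 0.686. Against WT, SKI and SMAD7 were lower in CFAP20/CCNC-dKO (9.9% of all genes) and BAMBI was higher in CFAP20-KO (7.35% of all genes). The SKIL promoter went the other way, with densities of 0.844, 1.17 and 1.68. It was past 1.5-fold higher in CFAP20/CCNC-dKO than in WT (18.9% of all genes) and than in CFAP20-KO (20.9% of all genes). No other promoter of the 4 genes above the filter was past 1.5-fold. The 8 other matrix genes measured did not share a direction. TGM2, a protein crosslinking transglutaminase, was past 1.5-fold lower in CFAP20/CCNC-dKO against both other libraries in both windows, with gene body densities of 2.76, 2.42 and 0.847. BGN and DCN, the small proteoglycans biglycan and decorin, were past 1.5-fold higher at the promoter there, relative to the median ratio. Promoter densities were 0.754, 0.619 and 1.06 for BGN and 0.314, 0.408 and 0.572 for DCN. The BGN gene body was lower in both knockouts than in WT, at 0.612, 0.281 and 0.208. CYR61, a secreted matricellular protein, was not past 1.5-fold in any comparison at its promoter, with densities of 13.6, 19.4 and 12.3. Of 5 plasminogen system and other proteases above the filter, the CTSL promoter was higher (18.9% of all genes) and those of HTRA1 and PRSS23 were lower (16.7% of all genes) in CFAP20/CCNC-dKO than in WT, and the PRSS23 gene body was lower. HTRA3 was higher at the promoter in CFAP20-KO than in WT and in the gene body in CFAP20/CCNC-dKO than in CFAP20-KO. Of 4 focal adhesion genes above the filter, the PARVA promoter was higher (15.8% of all genes) and the TNS3 promoter lower (16.7% of all genes) in CFAP20-KO than in WT. The FLNA promoter was higher in CFAP20/CCNC-dKO than in WT (18.9% of all genes) and than in CFAP20-KO (20.9% of all genes). Against CFAP20-KO, CFAP20/CCNC-dKO was also higher at the TNS3 promoter and lower at the PARVA promoter and in the TNS3 gene body, and no gene body of the 4 was past 1.5-fold against WT. Of 4 cell surface adhesion genes, the GPC4 promoter and the SDC2 gene body were lower in CFAP20-KO than in WT, and the SDC2 gene body was higher in CFAP20/CCNC-dKO than in CFAP20-KO. Of the 2 collagen modifying enzymes measured, the PLOD1 promoter was higher in CFAP20-KO, with densities of 1.37, 2.50 and 1.09, past 1.5-fold against both other libraries, and PCOLCE2 was past 1.5-fold in neither window.

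The labelled cell type was compared with its markers. Of 10 retinal pigment epithelium markers 6 were measured, of which OTX2 and MITF passed the filter and RPE65, RLBP1, LRAT and TTR did not. Of 5 mesenchyme and fibroblast markers measured 4 passed. Relative to the median ratio, the promoters of COL1A1, COL1A2 and DCN were past 1.5-fold higher in CFAP20/CCNC-dKO than in WT (18.9% of all genes). That of PDGFRB was lower (16.7% of all genes). PDGFRB promoter densities were 1.39, 2.01 and 0.751 in WT, CFAP20-KO and CFAP20/CCNC-dKO. COL1A2 and DCN passed the filter through the CFAP20/CCNC-dKO library alone. The leukocyte marker CD3E did not pass, and KDR passed of the 2 endothelial markers measured, with a promoter density of 1.09 in CFAP20-KO and 0.42 and 0.36 in WT and CFAP20/CCNC-dKO. The part of such marker differences in the results was not tested. Copy number was looked at through the median flank density of genes within 5 Mb: for the members above the filter the local ratio lay between 0.874 and 1.16 for CFAP20-KO against WT, 0.912 and 1.12 for CFAP20/CCNC-dKO against WT, and 0.863 and 1.12 between the knockouts.

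The spread between WT libraries could be read at the members near replication origins, where 3 WT libraries covered 95 kb on either side of origins mapped by sequencing of Okazaki fragments. 21 members, 25.3%, lay in such a window, against 18.3% of all genes, and 4 lay within 10 kb of an origin centre: LOX at 3.72 kb, FBLN2 at 5.13 kb, SERPINB4 at 6.30 kb and ADAM22 at 6.89 kb. 11 of the 21 were above the density filter. Their promoter density divided by flank density in the same library, a ratio that needs no scaling between libraries, had a median of 2.42, 1.21 and 1.92 in WT replicates 1, 2 and 3, or 1.85 ± 0.609 (SD, n = 3); the labels do not say whether these were separate cultures. The median was 1.77 for CFAP20-KO and 2.27 for CFAP20/CCNC-dKO, both within the WT range. WT ratios came from the 200-bp bins around origins and knockout ratios from the 10-bp bins around TSSs. These can differ in the same library: WT replicate 1 gave 3.18 and 3.02 for ADAMTS14, and 0.792 and 0.841 for COL6A3. Small gaps between a knockout and the WT range are therefore not informative. At 7 of the 11 members the WT libraries themselves differed by more than 1.5-fold (73.9% of all genes above the filter in origin windows), so a 1.5-fold gap between single libraries also occurred within 1 genotype.

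LOX had a promoter-to-flank ratio of 3.96, 3.94 and 4.38 in the WT replicates, 4.09 ± 0.247 (SD, n = 3), against 6.45 for CFAP20-KO and 4.57 for CFAP20/CCNC-dKO. Both knockouts lay above the 3 WT libraries, CFAP20/CCNC-dKO by less than 2 SD. LOXL1 had 2.89, 2.84 and 2.51 in WT, 2.75 ± 0.21 (SD, n = 3), against 1.54 for CFAP20-KO and 2.92 for CFAP20/CCNC-dKO, so CFAP20-KO lay below the WT range and CFAP20/CCNC-dKO just above it. ADAMTS15 had 2.42, 2.12 and 1.92 in WT, 2.16 ± 0.252 (SD, n = 3), against 0.764 and 1.12 in the knockouts, both below every WT library. ADAM22, whose gene codes for a catalytically inactive ADAM, had 4.97, 1.21 and 9.77 in WT and 5.32 and 3.03 in the knockouts, a WT spread that covers both. Over the 11 members CFAP20-KO lay above the WT range at 4 (28.2% of all genes above the filter in origin windows) and below it at 2 (23.5%). CFAP20/CCNC-dKO lay above it at 7 (14% of these genes) and below it at 1 (39.7%). The 7 were LOX, LOXL1, LOXL1-AS1, ADAMTS14, ITGB6, SERPINB13 and COL6A3, of which SERPINB13 and COL6A3 passed the filter only through the knockout libraries. With 3 libraries against 1 the smallest p an exact permutation test allows is above 0.05, and none was run. TGFBI, TGFBR2, ITGA5, ITGA11, COL1A1 and COL6A1 lay outside these windows, so for them the spread between WT libraries was not measured.

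**Figure D4:**
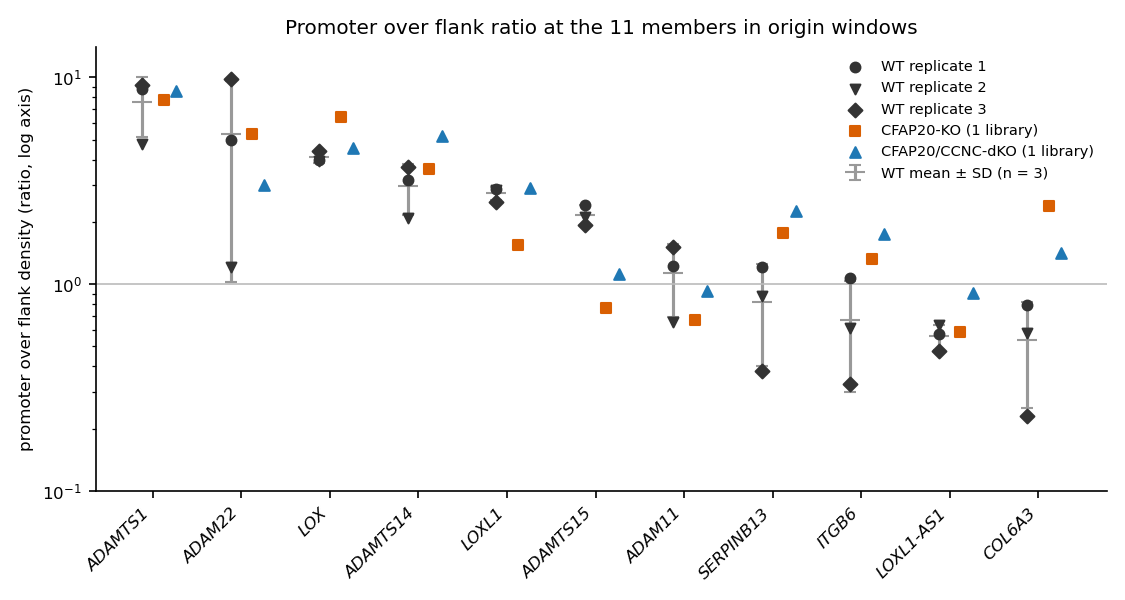
Promoter density divided by flank density (ratio, log axis) at the 11 members above the filter in origin windows, with black points for the 3 WT replicates, grey bars for their mean ± SD, and 1 point each for CFAP20-KO and CFAP20/CCNC-dKO. The WT points of LOX and LOXL1 lie close together, those of ADAM22 spread from 1.21 to 9.77, and both knockouts lie below all WT points at ADAMTS15.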

How the data were processed

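The authors deposited RNAPII occupancy as a coverage signal in bins: spike-in normalized density in 10-bp bins within 5000 bp of TSSs for replicate 1 of each genotype, per the file headers and names, and density in 200-bp bins within 100 kb of origins for 3 WT libraries, whose normalization is not stated in the sources used here. The deposited BrU-seq signal is the authors' WT value. The submitters' processing notes name BWA 0.7.17 and STAR 2.7.7a (aligners), HOMER 4.8.2, SAMtools, FastQC, Trim Galore and R, and the builds hg38 and BDGP6, without saying which made a given file. Left out were 2 columns with values per sample.

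Of 9944 listed TSSs, 9787 were in all 3 libraries. Members were 87 listed TSSs of 85 genes, of which 83 genes had values, all found by identifier in GENCODE 44 and 81 within 1 kb of a transcript start. The members, the gene lists and the rules were chosen with earlier results of these data known. Densities were averaged over windows with Python 3.11.15, numpy 2.4.6, pandas 2.3.3 and scipy 1.17.1. Log2 ratios were taken after adding 0.0411 (10% of the median over genes), which understates changes at low density. A gene was called at 1.5-fold relative to the median ratio over all 4891 genes above the filter, or the 4395 of at least 5000 bp for gene bodies. Deposited values were whole multiples of a step (0.0444, 0.181 and 0.110 in WT, CFAP20-KO and CFAP20/CCNC-dKO, tolerance 0.02 steps), and isolated fragments covered 145, 298 and 319 bp, which gave 6769549, 846832 and 1185046 equivalent fragments and the 95% intervals. The scripts were tested on simulated data. The text names TGFBI, ITGA5 and LOX, up to 8 members per comparison, window and direction that met both call rules, the 2 members with the highest promoter density in each family and the 5 highest and 5 lowest promoter-to-body ratios; other members named were chosen after their values were seen. Results of some genes, which stay in all counts and medians, are not reported here. Alternatives changed the centring, local scaling, pseudocount, filter, TSS choice and windows.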

Additional observations from a re-analysis of the deposited data

How the results depend on the processing

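No paired analysis was possible because each knockout had 1 library. Of 42 counts of members past 1.5-fold recomputed under an alternative, 29 stayed within 1.5 times of the value given above. Without the density filter the counts, higher and lower together, were 32 (promoter) and 23 (gene body) for CFAP20-KO against WT, 33 and 11 for CFAP20/CCNC-dKO against WT, and 39 and 23 for CFAP20/CCNC-dKO against CFAP20-KO. These counts are over 83 promoters or 82 gene bodies in place of 46, and the share of all genes past 1.5-fold rose too. Of all genes without the filter, 19.5% were higher and 24.6% lower at promoters for CFAP20-KO against WT, and 8.98% and 14.3% in gene bodies. For CFAP20/CCNC-dKO against WT these shares were 19.7% and 20.5% at promoters, and 5.82% and 10.7% in gene bodies. Against CFAP20-KO they were 27.9% and 24.4%, and 15% and 13%. The cause was not tested. With the BrU-seq filter, chosen after seeing the data, 25 promoters and 24 gene bodies of members were left. Past 1.5-fold, higher and lower together, were 6 promoters and 6 gene bodies for CFAP20-KO against WT and 6 promoters for CFAP20/CCNC-dKO against WT. For CFAP20/CCNC-dKO against CFAP20-KO they were 9 promoters and 6 gene bodies. Of all genes with this filter, 12.6% of promoters were higher and 16.7% lower for CFAP20-KO against WT, and 6.49% and 12.3% of gene bodies. For CFAP20/CCNC-dKO against WT the promoter shares were 13.6% and 15.2%. Against CFAP20-KO the shares were 19.6% and 16.1% of promoters, and 12.4% and 11% of gene bodies. For the gene body of CFAP20/CCNC-dKO against WT the count was 2 with a pseudocount of 20% and 3 with a window from 1000 bp. The share of all genes at these settings is not given here, so these counts cannot be read alone, and the cause was not tested. Of 54 medians 53 stayed within their interval; without centring the promoter median for CFAP20/CCNC-dKO against CFAP20-KO was -0.11, by construction. Of 1260 values of named genes 1257 stayed within their counting interval, and 1 changed sign: FBLN5 at the promoter for CFAP20-KO against WT, to 0.17 on the log2 scale with a window from -500 to 1000 bp. Of 45 calls of named members by the interval rule, 28 stayed past 1.5-fold under every setting that kept the genes tested and 17 did not. The WT promoter-to-flank median ranged from 1.57 to 2.17 when 1 WT library was left out, and was 3.24 over the 6 members within 50 kb of an origin centre. With 10.6 promoter fragments at the median member in CFAP20-KO, differences under about the width of the intervals given were not detectable at this depth.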
